A study of Homo sapiens with 8 samples.

Results

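The interferon-stimulated genes described here are 46 genes chosen by name, and all 46 were found among the 25369 genes of the deposited expression table. They comprise 39 genes typical of the type I interferon response and 7 of the interferon-gamma type, namely GBP1, GBP2, GBP3, IRF1, TAP1, PSMB8 and PSMB9. Their mRNA was measured by bulk RNA-seq in EPC2-hTERT cells, an epithelial line of the human esophagus that telomerase keeps dividing. The shCtrl group (4 libraries) came from cells stably carrying a control shRNA delivered by lentivirus, and the HIF1A-KD group (4 libraries) from cells stably carrying an shRNA against HIF1A, which encodes the oxygen-regulated subunit of hypoxia-inducible factor 1. Both groups were grown on membranes with 0.4 µm pores, first for 2 days to confluence, then for 5 days with 1.8 mM CaCl2 and finally for 4 days with the upper surface exposed to air, a culture in which squamous cells stratify. The labels' treatment text names a DMSO vehicle and dimethyloxalylglycine, an inhibitor of the prolyl hydroxylases that mark HIF-1α for degradation, without tying either to a library. No library is labelled as having received an interferon, so the values are the levels these cultures had without a labelled interferon stimulus. How many shRNA sequences or clones stood behind each group was not given in the sources used here. Nothing in the labels says that the 4 libraries of a group came from separate cultures, so the p-values measure the spread between these libraries, which may be technical.

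Type I interferons bind the IFNAR1 and IFNAR2 receptor and act through the kinases JAK1 and TYK2 on factors of the STAT family, among them STAT2, which join IRF9 and bind the interferon-stimulated response element (ISRE) in the promoters of their target genes. Interferon gamma binds IFNGR1 and IFNGR2 and acts through JAK1 and JAK2 on the gamma-activated site (GAS) and induces IRF1 and the guanylate-binding proteins. Most interferon-stimulated genes respond to both interferons to some degree, and epithelial cells keep many of them at a low level without a stimulus as part of their standing defence against viruses.

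The promoters show the element that many of these genes carry, and 6 of them were chosen because they hold the most matches among the members described library by library, ties going to the higher mean level. RefSeq promoter windows (GRCh38.p14, 250 bases before to 50 bases after the start) were matched for 38 of the 46 members. Each sequence below gives the 160 bases before the transcription start, 5′ to 3′ on the gene's strand, and the capitals mark matches on either strand to the ISRE core (GAAA, any 2 bases, then GAAA again) or to the GAS (TTCNNNGAA); overlapping matches run together. The stretches lie at chr1:1013337-1013496, plus strand (ISG15), at chr11:320861-321020, minus strand (IFITM3), at chr2:162318685-162318844, minus strand (IFIH1), at chr10:89414408-89414567, plus strand (IFIT5), at chr14:94110576-94110735, plus strand (IFI27) and at chr1:89022867-89023026, minus strand (GBP3).
ISG15: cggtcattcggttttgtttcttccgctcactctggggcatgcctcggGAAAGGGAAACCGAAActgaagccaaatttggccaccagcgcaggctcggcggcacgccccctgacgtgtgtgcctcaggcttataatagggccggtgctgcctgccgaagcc
IFITM3: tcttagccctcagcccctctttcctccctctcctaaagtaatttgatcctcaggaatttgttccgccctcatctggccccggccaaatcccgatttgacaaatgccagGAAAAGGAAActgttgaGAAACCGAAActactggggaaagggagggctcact
IFIH1: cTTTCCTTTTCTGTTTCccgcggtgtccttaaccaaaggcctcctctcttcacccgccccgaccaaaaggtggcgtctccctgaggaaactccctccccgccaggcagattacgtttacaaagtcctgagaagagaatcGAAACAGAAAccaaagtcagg
IFIT5: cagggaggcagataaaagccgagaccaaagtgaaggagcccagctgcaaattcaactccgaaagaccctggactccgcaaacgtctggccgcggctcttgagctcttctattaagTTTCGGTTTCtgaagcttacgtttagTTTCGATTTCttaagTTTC
IFI27: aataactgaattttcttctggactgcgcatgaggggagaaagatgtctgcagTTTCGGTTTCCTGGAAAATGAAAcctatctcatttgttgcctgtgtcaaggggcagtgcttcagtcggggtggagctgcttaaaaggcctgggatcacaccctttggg
GBP3: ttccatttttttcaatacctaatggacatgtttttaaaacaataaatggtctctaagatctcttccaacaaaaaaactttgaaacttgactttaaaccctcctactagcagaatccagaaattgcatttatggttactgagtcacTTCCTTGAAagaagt

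In ISG15 and IFIH1 the paired matches overlap into one longer run, and in IFI27 a GAS match overlaps both ISRE cores. The last match of IFIT5 runs past the start and is shown in part. In GBP3 the capitals mark a GAS, and its ISRE core lies after the start. An ISRE core was found in 23 of the 38 member windows (60.5%), in 20 of 32 type I windows (62.5%) and in 3 of 6 interferon-gamma type windows (TAP1, GBP1 and GBP3), against 3.57% of all 35116 RefSeq windows of the same length. A GAS was found in 10 of the 38 windows (26.3%), against 7.66% of all windows. The core of the hypoxia response element that HIF-1 binds, ACGTG or GCGTG on either strand, was found in 15 of the 38 (39.5%), against 48.4% of all windows. These are matches of letters in a window; no binding was measured, and IRF7, IFIT2, IFITM2, OAS2, OASL, MX2, USP18 and GBP2 had no matched window.

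HIF1A itself was read first, as the check of the labels. In the shCtrl libraries HIF1A (chr14:62162119-62214977, hg19) stood at 95.2, 51.4, 89.8 and 122 RPKM (reads scaled by gene length in kilobases and by library size), and in the HIF1A-KD libraries at 27.6, 19, 54.8 and 45 RPKM. The groups overlapped by 1 library of each, and the HIF1A-KD mean was 40.8% of the shCtrl mean (36.6 ± 16.3 against 89.7 ± 29.2 RPKM, SD, n = 4). The difference was -1.34 ± 0.37 (SE) on the scale of log2(RPKM + 0.1), used for every log2 difference given here (HIF1A-KD minus shCtrl) and understating changes of genes at low levels, with a limma adjusted p of 0.319 in the unpaired fit and of 0.0253 with the library number as a block (SE 0.17). Permuting the 8 values exhaustively (exact permutation test, two-sided) gave p = 0.0571, where the smallest possible value is 0.0286.

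The libraries held 38068729 to 65326907 reads. Libraries numbered 1 and 2 stood apart from those numbered 3 and 4 in both groups: 16577 to 17203 genes had at least 1 read in the former and 13798 to 15346 in the latter, and the first principal component, with 41.9% of the variance, separated them. All 8 squamous epithelial markers were expressed, with summed levels of 22500 to 28400 RPKM in shCtrl and 23500 to 28000 RPKM in HIF1A-KD libraries. Of the leukocyte markers 1 of 7, CD14, averaged at least 0.5 RPKM (summed level 1.53 to 10.2 against 2.08 to 6.37 RPKM), PTPRC, CD3E and TYROBP stayed under 0.1 RPKM in every library, and the 4 plasmacytoid dendritic cell markers were at 0. The eosinophil list summed to at most 0.489 RPKM, with PRG2, EPX and SIGLEC8 under 0.1 RPKM in every library. COL1A1 was the fibroblast marker of 6 and VWF the endothelial marker of 4 that averaged at least 0.5 RPKM, with list sums of 21.2 to 27.7 against 14.1 to 19.2 RPKM and of 0.748 to 15.4 against 1.39 to 12.8 RPKM.

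GBP2, a guanylate-binding protein of the interferon-gamma type, and IFITM2, a transmembrane protein that blocks virus entry, were the members called higher in HIF1A-KD. They were called in the fit that treated libraries of the same number as pairs and not in the unpaired fit. Of the 46 members 36 reached 0.5 RPKM in at least 4 libraries and were tested; the other 10 were IFIT1, IFIT2, IFIT3, BST2, MX2, RSAD2, CMPK2, HERC5, IFI44L and PSMB9. In the fit with pairs 2 of the 36 were called, both higher and 0 lower, where 1.83% of the 11899 tested genes were called and 0.740% were called higher. In the unpaired limma fit 0 members passed an adjusted p of 0.05, where 0.0420% of all tested genes passed and 0.0252% were higher; 6 members were higher and 0 lower at an unadjusted p under 0.05, against 7.80% of all genes in either direction and 4.69% higher, and limma-voom on the recovered reads called 0 members as well. With the pairs, 13 members were higher and 1 was lower at an unadjusted p under 0.05, where 19.6% of all genes passed in either direction and 11.9% were higher. Each of the 2 calls was lost when any one of the 4 libraries numbered 1 and 2 was left out (limma adjusted p 0.0869 to 0.12 for GBP2 and 0.0735 to 0.169 for IFITM2). Leaving out a library also removes its pair from the comparison. The estimates were then 2.14 or 2.22 for GBP2 and 1.34 or 1.71 for IFITM2, and 6 to 34 of all genes were called, against 218 with every library. Both calls were also lost when no gene was filtered for a low level (0.077 and 0.112), an alternative chosen after seeing the data. With a term for libraries 1 and 2 against 3 and 4 in place of the pairs, whose matching is uncertain for numbers 3 and 4, GBP2 passed (limma adjusted p 0.0236) and IFITM2 did not (0.0775). Bulk values do not tell a change in the number of expressing cells from a change in RNA per cell.

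The estimates of the members lay above 0 more often than below. Of the 36 tested members 26 had a higher estimate in HIF1A-KD (72.2%), with a median log2 difference of 0.25, beside 58.7% and a median of 0.064 over all tested genes. Type I members gave 22 of 30 and a median of 0.29, and interferon-gamma type members 4 of 6 and a median of 0.21. The groups did not overlap for 5 members, all higher in HIF1A-KD (IFIH1, IFITM1, OAS1, SAMD9L and GBP2), where 5.40% of all tested genes were apart, 3.27% higher and 2.13% lower. In the 4 pairs of equal number, 15 members were higher in every pair, against 18.6% of all genes, and 1, IRF9, was lower in every pair, against 10.9%. Of the 36, 35 reached 0.5 RPKM in at least 2 libraries of each group; SAMD9L reached it in 1 shCtrl and 4 HIF1A-KD libraries and so passed the filter through the group in which it was higher. Over all 46 members with no filter on low values, the median was 0.17 and 31 estimates were above 0.

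**Figure D1:**
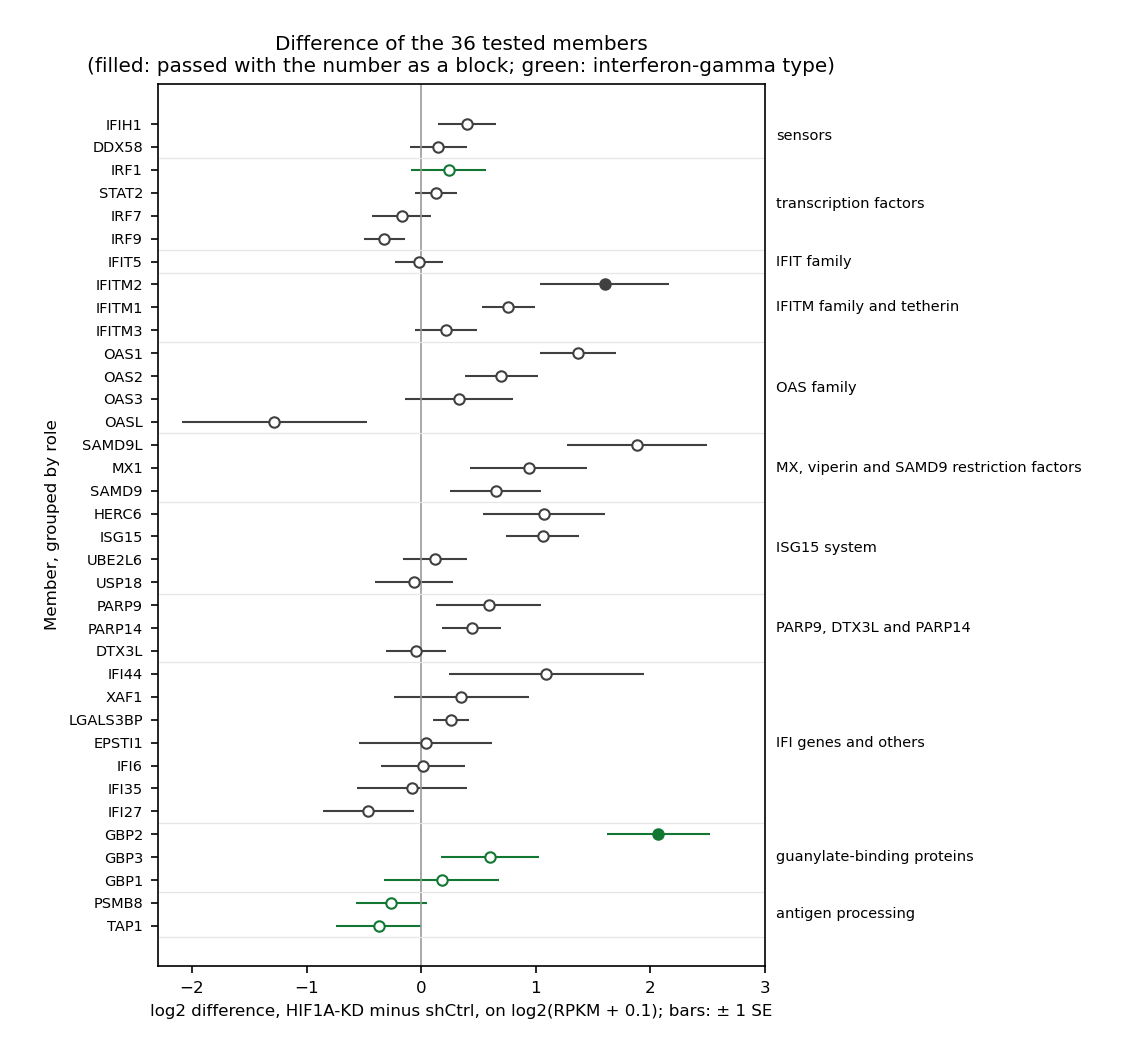
Log2 difference (HIF1A-KD minus shCtrl, horizontal axis, on log2(RPKM + 0.1)) of the 36 tested members grouped by role, with bars of 1 SE from the unpaired fit; green marks the interferon-gamma type, and the 2 filled points, GBP2 and IFITM2, passed with the library number as a block. SAMD9L at 1.88 has the widest interval of the 3 highest estimates, and OASL at -1.28 is the lowest.

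One control library, shCtrl 1, was the lowest for most members. It held the lowest of the 8 values for 22 of the 36 tested members (61.1%), where 20.8% of all tested genes were lowest in that library. The median deviation of the members from their own means was -0.77 on the log2 scale in shCtrl 1, -0.017, 0.051 and 0.0046 in shCtrl 2, 3 and 4, and -0.035, 0.082, 0.32 and 0.28 in HIF1A-KD 1 to 4; over all tested genes it was -0.03 in shCtrl 1. Without shCtrl 1 the median difference of the members was 0.17 and 21 of 36 were above 0. Of the 8 squamous epithelial markers 4 were lowest in this library. KRT13, a keratin of differentiating squamous cells, was 1 of them, at 25.7 RPKM against 152 to 676 RPKM in the other shCtrl and 367 to 1080 RPKM in the HIF1A-KD libraries. Other markers on the list did not follow it. IVL was lowest in HIF1A-KD 1 (269 RPKM, against 372 RPKM in shCtrl 1). KRT6A stood at 12700 RPKM in shCtrl 1, within a shCtrl range of 9070 to 13700 RPKM. The part of these markers in the result was not tested. Libraries 1 and 2 alone gave a median of 0.26 (25 of the 35 tested there above 0), and libraries 3 and 4 alone 0.31 (26 of 36). Over all tested genes these medians were 0.064 and 0.065, and 6932 and 6741 of the 11899 genes had estimates above 0 there. For the interferon-gamma type the same values were -0.023 (3 of 6) and 0.52 (4 of 6), and 0.047 (3 of 6) without shCtrl 1.

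**Figure D2:**
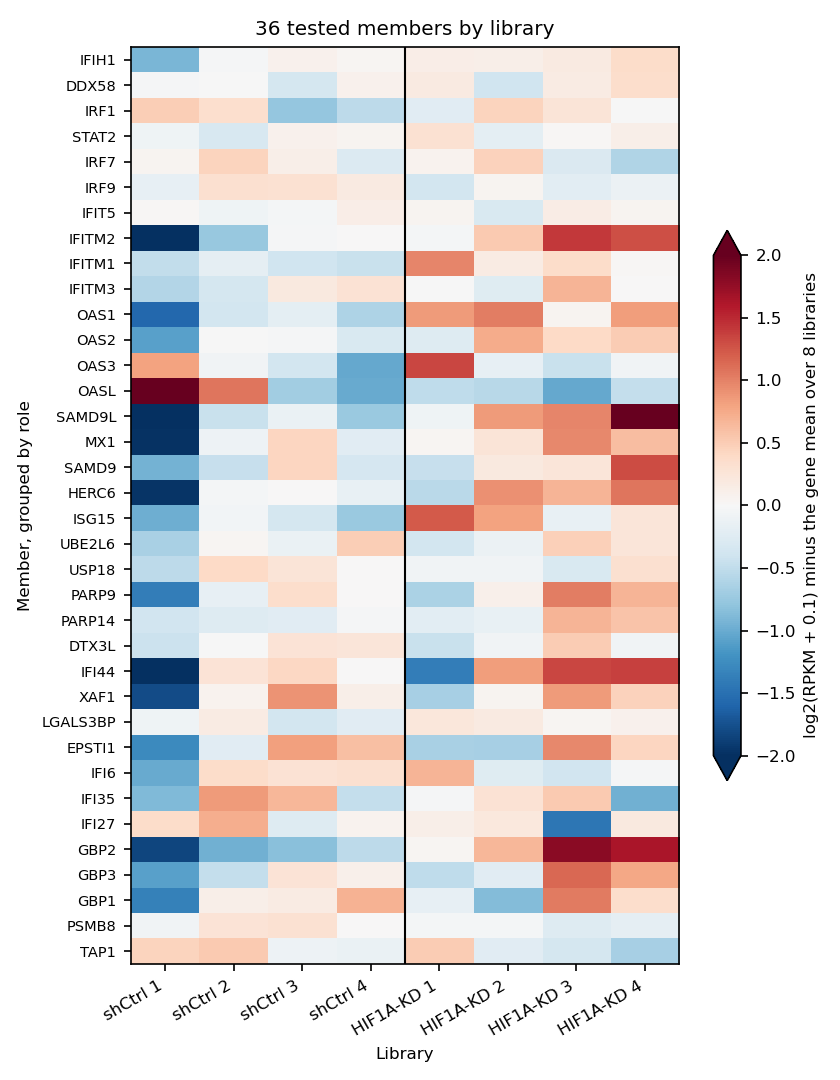
Deviation of log2(RPKM + 0.1) from each gene's mean over the 8 libraries (colour, blue low and red high, clipped at 2 in either direction) for the 36 tested members in rows and the libraries in columns, with a line between the groups. The shCtrl 1 column is blue for most members, with a median of -0.77, and OASL is red in it.

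The ligands were scarcely transcribed in these cultures. Of 12 interferon genes 8 had 0 reads in every library (4 alpha subtypes, IFNW1 and 3 lambda genes), where 3 reads, the limit that a count of 0 allows, would correspond to 0.0303 to 0.132 RPKM for these genes. IFNB1 had 2 reads in 1 library and IFNG 1 read in 1 library. IFNK, the interferon of keratinocytes, had 21 reads in 4 libraries, and IFNE, an interferon of epithelia, had 180 reads spread over all 8. IFNE ranged from 0.285 to 0.406 RPKM in shCtrl and from 0.156 to 0.595 RPKM in HIF1A-KD libraries. Its means were 0.329 and 0.319 RPKM, and it was not tested.

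The receptors and signalling genes upstream of the members were expressed, and 0 of 10 passed in either fit (limma). At an unadjusted p under 0.05, 2 were higher unpaired and 3 with the pairs, where 4.69% and 11.9% of all tested genes were higher. Of the 10, 4 were higher and 2 lower in every pair, against 18.6% and 10.9% of all tested genes. IFNAR1, a chain of the type I receptor, stood at 4.87, 4.99, 5.48 and 5.49 RPKM in shCtrl and 6.42, 5.81, 6.88 and 6.1 RPKM in HIF1A-KD, without overlap (log2 difference 0.27, limma adjusted p 0.781). The other chain, IFNAR2, was lower in every pair, from 1.08 to 2.13 and from 0.83 to 1.69 RPKM, with overlap (-0.50, limma adjusted p 0.813). IFNLR1, of the interferon lambda receptor, was also lower in every pair (-0.24). STAT3, which interferons activate beside other cytokines, gave 23.8, 24.8, 25.4 and 27.4 against 32.6, 28.7, 37.9 and 30.4 RPKM, also without overlap (0.35, adjusted p 0.62). The kinase JAK1 ranged from 17.6 to 20.7 and from 17.7 to 23.0 RPKM (0.14), the interferon-gamma receptor chain IFNGR1 from 17.5 to 32.1 and from 12.8 to 32.7 RPKM (-0.067) and its partner IFNGR2 from 25.1 to 41.9 and from 32.0 to 38.7 RPKM (0.13). SOCS1, which inhibits the JAK kinases, gave 5.79, 7.04, 7.49 and 4.65 against 4.52, 4.28, 3.59 and 5.81 RPKM (-0.44, adjusted p 0.721).

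Genes of the wider pathway were counted from lists set up for it, 104 genes in all. Of these 78 were tested and 0 passed in either limma fit, with 2 higher and 0 lower at an unadjusted p under 0.05 unpaired and 9 higher and 2 lower with the pairs, against 7.80% and 19.6% of all tested genes in either direction and 4.69% and 11.9% higher. Their estimates lay above 0 for 53 (67.9%), with a median of 0.10, beside 58.7% and 0.064 over all tested genes. Without shCtrl 1 the estimates of 38 of the 78 were above 0 and the median was -0.0033, where that of all tested genes was 0.056, and with median-of-ratios scaling 43 were above 0 (median 0.025, against -0.0077 over all genes). Of the sensing and induction genes 12 of 13 were tested (9 above 0), of the negative regulators 10 of 10 (7), of other interferon-induced genes 31 of 32 (22), of further interferon-gamma type genes 4 of 13 (2) and of class I presentation genes 11 of 14 (6). HLA-F was untested at a length that adds up 7 listed copies. Over 1 copy its mean over all libraries would be 3.01 RPKM. The adaptors TICAM1 and MYD88 averaged 28.8 ± 13.8 and 45.5 ± 19.1 RPKM in shCtrl and 40.0 ± 18.5 and 52.4 ± 15.1 RPKM in HIF1A-KD (SD, n = 4). Among the negative regulators NLRX1, which restrains signalling from MAVS, averaged 27.1 ± 17.4 and 23.8 ± 16.2 RPKM, and PIAS1, which inhibits STAT signalling, 16.9 ± 4.27 and 18.8 ± 5.12 RPKM. The DNA sensor IFI16 averaged 35.2 ± 16.0 and 46.1 ± 23.8 RPKM and the phospholipid scramblase PLSCR1 28.2 ± 10.9 and 29.7 ± 3.94 RPKM. WARS, a tryptophanyl-tRNA synthetase, averaged 35.6 ± 3.79 and 38.0 ± 8.9 RPKM, and SECTM1 5.69 ± 3.62 and 5.68 ± 1.24 RPKM. B2M, the light chain of class I molecules, averaged 210 ± 60.5 and 208 ± 64.9 RPKM, and PSME1, a proteasome activator subunit, 51.8 ± 10.4 and 55.3 ± 10.8 RPKM. The groups overlapped for each of these 10 genes.

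Among the members, the sensors of viral RNA come first in the order of the response. IFIH1, which encodes MDA5 (its promoter holds 3 ISRE cores), gave 1.73, 3.27, 3.56 and 3.43 RPKM in shCtrl and 3.66, 3.64, 3.81 and 4.31 RPKM in HIF1A-KD. The groups did not overlap, but apart from shCtrl 1 they were separated by little, and the difference of 0.40 (SE 0.25; 0.17 without shCtrl 1) did not pass (limma adjusted p 0.813 unpaired, 0.342 paired). DDX58, which encodes RIG-I, gave 1.5, 1.51, 1.17 and 1.62 against 1.73, 1.13, 1.72 and 1.98 RPKM. The groups overlapped, and its difference was 0.15 overall and -0.10 in libraries 1 and 2 alone.

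The transcription factors of the response did not move in one direction. IRF9, the DNA-binding partner of STAT2, gave 11.2, 15.7, 15.6 and 14.2 RPKM in shCtrl and 9.69, 13.1, 10.9 and 11.6 RPKM in HIF1A-KD. It was lower in each of the 4 pairs while the groups overlapped through the low shCtrl 1 value (log2 difference -0.32, SE 0.18, limma adjusted p 0.771 unpaired and 0.184 paired). IRF7, which drives interferon alpha genes, gave 10.1, 13.2, 10.5 and 7.98 against 10.2, 13.3, 7.94 and 6.36 RPKM, nearly the same values in numbers 1 and 2 and lower ones in numbers 3 and 4 (-0.17). STAT2 stood between 5.74 and 7.64 RPKM in shCtrl and between 6.26 and 8.89 RPKM in HIF1A-KD (0.13). IRF1, the interferon-gamma type factor, gave 3.27, 2.92, 1.31 and 1.58 against 1.96, 3.19, 2.78 and 2.28 RPKM. Its shCtrl values split by library number, with 1 and 2 above 3 and 4, and the difference of 0.24 was -0.29 in libraries 1 and 2, 0.77 in libraries 3 and 4 and 0.44 without shCtrl 1.

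The IFIT genes, whose proteins bind foreign RNA ends, lie in a cluster on chromosome 10, and 1 of the 4 was tested. IFIT5 gave 1.67, 1.53, 1.59 and 1.8 RPKM in shCtrl and 1.71, 1.31, 1.82 and 1.71 RPKM in HIF1A-KD, with a difference of -0.016 (SE 0.21). The groups overlapped, and its promoter holds 3 ISRE cores. IFIT1, IFIT2 and IFIT3, usually among the first genes to respond to interferon, stayed under 0.7 RPKM in every library. IFIT1 had 40 to 84 reads in shCtrl and 30 to 149 reads in HIF1A-KD, IFIT2 had 8 to 42 reads and IFIT3 had 18 to 87 reads per library.

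The IFITM genes, 3 neighbours on chromosome 11 whose proteins keep viruses from fusing with endosomal membranes, were all higher on average. IFITM2 (chr11:308107-309410, hg19) gave 0.792, 2.73, 4.63 and 4.7 RPKM in shCtrl and 4.59, 6.82, 12.7 and 11.6 RPKM in HIF1A-KD. Within each group the libraries numbered 3 and 4 were the highest, so that the groups overlapped while every pair showed the higher value in HIF1A-KD. The mean went from 3.21 ± 1.85 to 8.92 ± 3.86 RPKM (SD, n = 4), a ratio of 2.78, with a log2 difference of 1.60; the SE was 0.56 without and 0.22 with the pairs, and the limma adjusted p 0.453 and 0.0287. In libraries 1 and 2 the difference was 1.84, in 3 and 4 it was 1.36, and without shCtrl 1 it was 1.06.

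IFITM1 ranged from 3.4 to 4.23 RPKM in shCtrl and from 4.91 to 9.6 RPKM in HIF1A-KD. The groups did not overlap and HIF1A-KD 1 was the highest library; the log2 difference was 0.76 (SE 0.23, limma adjusted p 0.376 unpaired and 0.13 paired). IFITM3, the family's most abundant member, gave 43.7, 51.3, 74.8 and 80.3 against 65.4, 55.4, 105 and 65.7 RPKM. These values overlapped (0.22, SE 0.27; 0.066 without shCtrl 1). The 3 genes are close relatives, and reads that match more than 1 of them may have been miscounted. BST2, which encodes the tetherin that holds budding virions on the cell surface, had 0 to 7 reads per library.

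The OAS genes encode enzymes that make oligoadenylates when they meet double-stranded RNA, and OAS1, OAS3 and OAS2 lie side by side on chromosome 12. OAS1 (chr12:113344739-113357712, hg19) gave 2.59, 6.09, 6.92 and 5.13 RPKM in shCtrl and 14.3, 16.1, 8.21 and 14.2 RPKM in HIF1A-KD. All HIF1A-KD values were above all shCtrl values, with a mean of 13.2 ± 3.42 against 5.18 ± 1.88 RPKM (SD, n = 4), a ratio of 2.54. The log2 difference of 1.37 (SE 0.33) did not pass in either fit (limma adjusted p 0.245 unpaired, 0.1 paired), though it did with pairs when either library numbered 3 was left out (0.0346 and 0.0364). OAS2 ranged from 0.914 to 2.04 and from 1.69 to 3.5 RPKM and was higher in every pair (0.70; 0.46 without shCtrl 1). OAS3 ranged from 1.49 to 5.52 and from 2.27 to 8.07 RPKM (0.33; 0.65 without shCtrl 1).

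OASL, the family member without the enzyme activity, was the exception. It gave 26.0, 5.86, 1.65 and 1.31 RPKM in shCtrl and 1.9, 1.83, 1.3 and 1.93 RPKM in HIF1A-KD. The lower HIF1A-KD mean came from shCtrl 1 and 2, while shCtrl 3 and 4 lay within the HIF1A-KD values or next to them. The log2 difference of -1.28 (SE 0.81, limma adjusted p 0.813) was -2.67 in libraries 1 and 2, 0.10 in libraries 3 and 4 and -0.43 without shCtrl 1, the library in which most other members were lowest.

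The SAMD9 pair on chromosome 7 encodes restriction factors of poxviruses. SAMD9L (chr7:92759368-92777680, hg19) gave 0.029, 0.419, 0.543 and 0.32 RPKM in shCtrl and 0.562, 1.17, 1.29 and 2.75 RPKM in HIF1A-KD. The groups were apart, if narrowly between shCtrl 3 and HIF1A-KD 1, and the mean went from 0.328 ± 0.219 to 1.44 ± 0.926 RPKM (SD, n = 4). The difference of 1.88 (SE 0.61) had a limma adjusted p of 0.418 unpaired and 0.0709 paired and was 1.38 without shCtrl 1. Its neighbour SAMD9, far more abundant, gave 17.9, 25.1, 46.8 and 27.3 against 25.2, 39.7, 41.0 and 85.9 RPKM, with overlap (0.65, SE 0.40). The dynamin-like GTPase MX1 gave 0.181, 0.936, 1.39 and 0.846 against 1.04, 1.22, 2.07 and 1.61 RPKM. MX1 was higher in every pair and lowest in shCtrl 1 (0.94, SE 0.51, adjusted p 0.752; 0.44 without shCtrl 1). MX2 did not pass the filter and had 0 to 28 reads in shCtrl and 31 to 91 reads in HIF1A-KD. Scaled by library size the groups overlapped, at 0 to 0.198 against 0.176 to 0.651 RPKM. With no filter the difference of MX2 was 1.47 (limma adjusted p 0.509). RSAD2, which encodes viperin, stayed between 0.0823 and 0.542 RPKM and its neighbour CMPK2 had 0 to 19 reads per library.

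ISG15 encodes a ubiquitin-like modifier, and UBE2L6, HERC5, HERC6 and USP18 belong to the machinery that attaches or removes it or to the families of that machinery. ISG15 (chr1:948847-949919, hg19), whose overlapping ISRE cores are shown above, gave 6.45, 12.2, 10 and 7.61 RPKM in shCtrl and 29.8, 22.3, 11.5 and 15.1 RPKM in HIF1A-KD. The groups overlapped between shCtrl 2 and HIF1A-KD 3, and every pair was higher in HIF1A-KD. The mean went from 9.07 ± 2.57 to 19.7 ± 8.15 RPKM (SD, n = 4), with a log2 difference of 1.06 (SE 0.32, limma adjusted p 0.376 unpaired and 0.15 paired), 1.53 in libraries 1 and 2 and 0.59 in libraries 3 and 4. UBE2L6, the conjugating enzyme for ISG15, gave 6.41, 10.4, 9.24 and 14.2 against 7.76, 9.3, 14.1 and 12.0 RPKM, with overlap (0.12; -0.074 without shCtrl 1). HERC6 ranged from 0.313 to 1.53 and from 1.01 to 3.28 RPKM and was higher in every pair (1.07, adjusted p 0.707 unpaired and 0.067 paired; 0.59 without shCtrl 1). USP18, which removes ISG15 and dampens receptor signalling, ranged from 0.396 to 0.842 and from 0.479 to 0.787 RPKM (-0.065; -0.25 without shCtrl 1), and HERC5, the ligase for ISG15, stayed at or under 0.524 RPKM and was not tested.

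PARP9 and DTX3L encode partners in an ADP-ribosylation and ubiquitin-ligase complex, and PARP14 is a related transferase on the same chromosome. PARP14 gave 2.03, 2.23, 2.28 and 2.65 RPKM in shCtrl and 2.3, 2.4, 4.36 and 4.05 RPKM in HIF1A-KD, higher in every pair but clearly so in numbers 3 and 4 (0.44, SE 0.26). DTX3L gave 2.26, 3.05, 3.72 and 3.66 against 2.22, 2.91, 4.41 and 2.9 RPKM, with overlap (-0.044; -0.19 without shCtrl 1). PARP9 ranged from 0.764 to 2.79 and from 1.36 to 4.51 RPKM and was higher in every pair (0.59; 0.23 without shCtrl 1). PARP9 and DTX3L overlap by 339 bases on opposite strands, and since the use of strand in counting was not given in the sources used here, reads from that stretch cannot be told apart.

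The remaining type I members have mixed functions. LGALS3BP, a secreted glycoprotein and the most abundant member, gave 72.3, 86.1, 59.3 and 65.9 RPKM in shCtrl and 89.5, 86.5, 78.9 and 81.1 RPKM in HIF1A-KD. Each pair was higher in HIF1A-KD, by little in number 2, and the groups overlapped through shCtrl 2 (0.26, SE 0.16, limma adjusted p 0.813). IFI27, a mitochondrial protein, gave 4.64, 5.96, 2.96 and 3.76 against 3.88, 4.13, 1.24 and 4.11 RPKM, with HIF1A-KD 3 far below the rest (-0.46, SE 0.40). IFI44 ranged from 0.0359 in shCtrl 1 to 1.21 RPKM in shCtrl and from 0.279 to 2.45 RPKM in HIF1A-KD (1.09, SE 0.85; 0.31 without shCtrl 1). XAF1, EPSTI1, IFI6 and IFI35 had estimates of 0.35, 0.039, 0.017 and -0.077 (-0.19, -0.38, -0.32 and -0.38 without shCtrl 1), all with overlapping groups, and IFI44L had 0 to 7 reads per library.

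**Figure D3:**
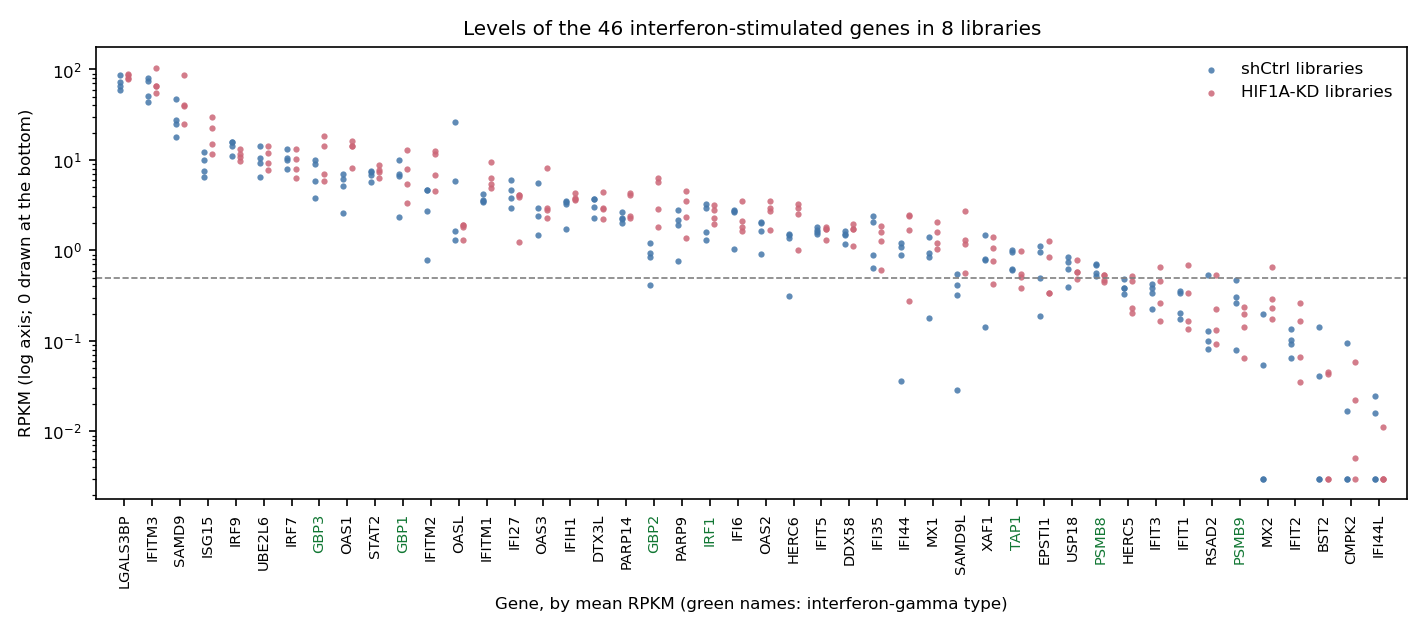
RPKM (vertical, log axis, values of 0 drawn at the bottom) of the 46 members in each of the 8 libraries, ordered by mean level; blue points are shCtrl, red points HIF1A-KD, green names the interferon-gamma type and the dashed line 0.5 RPKM. Levels run from LGALS3BP at 59.3 to 89.5 RPKM down to IFI44L at 0 to 0.0249 RPKM.

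Among the interferon-gamma type members are the guanylate-binding proteins, GTPases that act against intracellular pathogens, and genes of antigen processing; differences between these 2 groups of genes were not tested. GBP2 (chr1:89571816-89591842, hg19) gave 0.42, 0.857, 0.947 and 1.2 RPKM in shCtrl and 1.81, 2.86, 6.38 and 5.68 RPKM in HIF1A-KD. Every HIF1A-KD library was above every shCtrl library, and numbers 3 and 4 were the highest in both groups. The mean went from 0.856 ± 0.325 to 4.18 ± 2.2 RPKM (SD, n = 4), a ratio of 4.88, with the largest log2 difference of the members, 2.07. The SE was 0.45 without and 0.23 with the pairs, and the limma adjusted p 0.183 and 0.0163; the difference was 1.75 in libraries 1 and 2, 2.39 in 3 and 4 and 1.80 without shCtrl 1.

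GBP1 and GBP3, the other members of this family on chromosome 1, did not separate the groups. GBP3 gave 3.84, 5.9, 10 and 8.93 RPKM in shCtrl and 5.81, 7.08, 18.4 and 14.3 RPKM in HIF1A-KD, higher in every pair with overlapping groups (0.60, SE 0.43 unpaired; limma adjusted p 0.846 unpaired and 0.0902 paired; 0.33 without shCtrl 1). GBP1, the family's classic interferon-gamma target, gave 2.35, 6.69, 6.93 and 9.99 against 5.45, 3.34, 12.8 and 7.85 RPKM. It was higher in the pairs numbered 1 and 3 and lower in 2 and 4 (0.18, SE 0.50), and without shCtrl 1 the difference was -0.24. The 3 genes are close relatives, and here too reads that match more than 1 of them may have been miscounted. How far the difference of GBP2 departs from those of GBP1 and GBP3 was not tested. GBP4 and GBP5 lie on the same stretch of chromosome 1 but are not members, and neither passed the filter. GBP5 ranged from 0.408 to 0.522 RPKM in shCtrl and from 0.0541 to 0.311 RPKM in HIF1A-KD, lower without overlap. GBP4 ranged from 0.00681 to 0.143 and from 0 to 0.152 RPKM, with overlap.

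TAP1 carries peptides into the endoplasmic reticulum, and PSMB8 and PSMB9 are catalytic subunits of the immunoproteasome; all 3 lie in the major histocompatibility complex on chromosome 6. TAP1 gave 0.952, 1.01, 0.617 and 0.606 RPKM in shCtrl and 0.997, 0.556, 0.503 and 0.388 RPKM in HIF1A-KD, with overlap through HIF1A-KD 1 (-0.37, SE 0.37, limma adjusted p 0.936). PSMB8 gave 0.523, 0.691, 0.705 and 0.56 against 0.535, 0.534, 0.448 and 0.474 RPKM, also with overlap (-0.26, SE 0.31). PSMB9 was not tested, at 0.0789, 0.262, 0.467 and 0.305 against 0.0654, 0.141, 0.197 and 0.238 RPKM, and was lower in all 4 pairs. These 3 genes are listed on 8 contigs of hg19, the chromosome and 7 alternative haplotypes, and their lengths of 25160, 14174 and 8377 bases add up all copies, so their RPKM are lower than on a single copy and are not comparable with the levels of other genes. Taken over 1 copy, the mean over all libraries would be 5.63 RPKM for TAP1, 4.47 for PSMB8 and 1.75 for PSMB9, which failed the filter at the deposited scale.

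**Figure D4:**
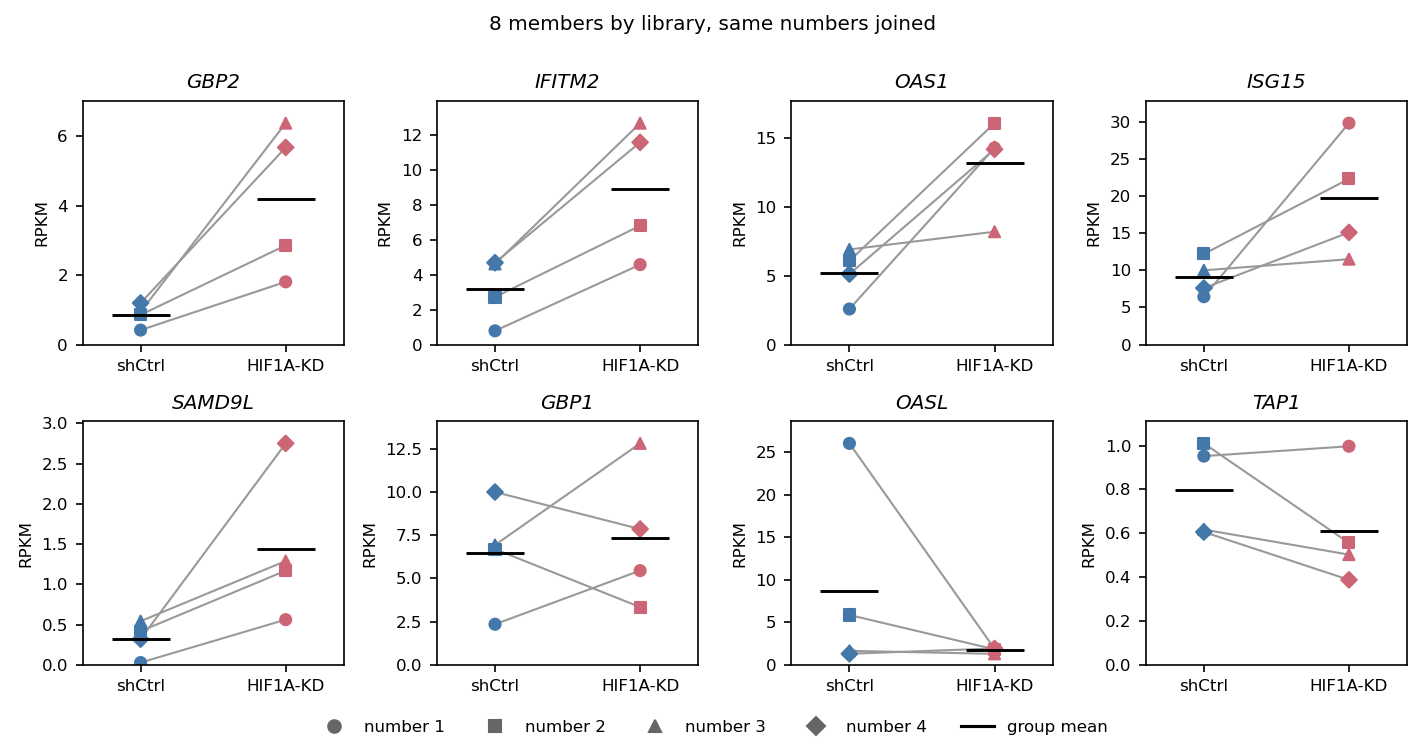
RPKM (vertical, linear axis from 0) of 8 members in shCtrl and HIF1A-KD libraries, with libraries of the same number joined by a line and drawn with the same symbol and black bars for the group means. GBP2, IFITM2, OAS1, ISG15 and SAMD9L are higher in HIF1A-KD in all 4 pairs, GBP1 and TAP1 cross, and OASL is lower in numbers 1, 2 and 3 and higher in number 4.

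The authors' deposited table of their own comparison lists 43 of the 46 members and gives more calls. The authors' deposited table has 9 members higher and 1 lower at an adjusted p under 0.05, and 9.02% of its 13625 genes with an adjusted p passed and 3.94% were higher. Its log2 fold changes, moderated by the authors, were 1.87 for GBP2 (adjusted p 8.29e-18), 1.24 for SAMD9L, 1.17 for IFITM2, 0.97 for OAS1, 0.89 for HERC6, 0.74 for ISG15, 0.60 for OAS2, 0.51 for PARP9 and 0.50 for GBP3 in the authors' deposited table, and -0.86 for OASL (adjusted p 0.0447). Moderated values are not on the scale of the log2 differences given above. OASL, for one, had group means of 893 and 169 in the authors' deposited table. GBP2 and IFITM2 are thus called there and in the fit with pairs, and the other 8 did not pass in either limma fit; the table's test and its design were not given in the sources used here.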

How the data were processed

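Total RNA of 8 EPC2-hTERT libraries was sequenced; the submitters' processing notes name TopHat2 2.0.13, HTSeq 0.6.1, Bowtie2 2.2.3.0, FastQC 0.11.5, Picard 1.129, bcl2fastq, SAMtools 1.3.1 and the builds hg19 and hg38, with no role or order. The deposited table is named for raw counts, but its values are RPKM made by the authors; multiplied by gene length they gave whole reads for 100% of the genes with a readable length (within 0.01 read), and its coordinates carry hg19 contig names. The authors also deposited mean normalised signal per group, log2 fold changes and adjusted p-values for 13627 genes, by a tool that the sources used here do not name.

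The 11899 genes that reached 0.5 RPKM in 4 or more libraries were fitted with limma 3.58.1 in R 4.3.3, with trend and robust moderation, on log2(RPKM + 0.1). Tests were two-sided with Benjamini-Hochberg adjustment over all tested genes and a threshold of 0.05. The unpaired fit was tried on simulated counts that had neither pairs nor a library split, so the fit with pairs was not covered. The fit given first had no block. Library numbers in the labels are shared by the groups, and same-numbered libraries deviated together (correlations of deviations 0.754, 0.73, 0.252 and 0.257, all over 0.1), so they were taken as pairs and a fit blocked by number is given beside it. The crossed pairs shCtrl 3 and HIF1A-KD 4 (0.463) and shCtrl 4 and HIF1A-KD 3 (0.613) correlated more, so the pairing of numbers 3 and 4 is uncertain. These crossed pairs and shCtrl 1 with HIF1A-KD 2 (0.12) were over 0.1 too, so that limit alone does not tell pairs from other combinations. The alternatives were other pseudocounts (1 and 0.01), filters and scaling, limma-voom on the recovered reads, the library split as a term, libraries 1 and 2 or 3 and 4 alone and leaving out each library.

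The members, their roles and the pathway and marker lists were chosen with earlier results of these data known; a few genes of the pathway and marker lists are not reported here and were left out of the list counts. Values in every library are given for the interferon-gamma type, members called in either fit, the 2 most abundant tested members of each role and the 3 highest and 3 lowest estimates. For genes with several listed starts the first RefSeq promoter window was used, and the background is all 35116 windows.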

Additional observations from a re-analysis of the deposited data

Results flagged for a closer look

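Within 88 sets of 4 libraries (the members and pathway genes named by rule and HIF1A, in each group), 5 had a library set apart from the other 3 by more of the whole range than Dixon's critical value for 4 samples allows. Chance sets apart about 1 in 20 such groups. IFI27 was at 1.24 RPKM in HIF1A-KD 3, below the other HIF1A-KD libraries, IFIH1 at 1.73 RPKM in shCtrl 1, below the other shCtrl libraries, and OASL at 1.3 RPKM in HIF1A-KD 3, below values that lay close together. IFNGR2 was at 32.0 RPKM in HIF1A-KD 1, below the other 3, and JAK1 at 20.7 RPKM in shCtrl 4, above the other 3.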

How the results depend on the processing

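The number of all genes called, 5 in the unpaired fit, was 218 with the replicate block, 102 with the library split as a term, 23 with the block and no filter on low values (chosen after seeing the data), 8 with median-of-ratios scaling, 3 with limma-voom or with a pseudocount of 1 or 0.01, 1 with no filter and 0 in libraries 1 and 2 alone; leaving out a library gave 0 to 3, and 6 to 246 with the block. Members called, 0 unpaired, were 2 with the block (1 type I, 1 interferon-gamma type) and 1 with the library split as a term (GBP2, interferon-gamma type); leaving out a library gave 0 throughout, and with the block 0 to 3 (type I 0 to 2, interferon-gamma type 0 to 1). HIF1A, at -1.34 with the block (passed), ranged from -1.59 to -1.07 when a library was left out, and from -1.55 to -1.20 with the block, where it passed without shCtrl 3, HIF1A-KD 3 or shCtrl 4 (-1.55, -1.55 and -1.31). The median over the members lay between 0.16 and 0.41 in every alternative, and that of the interferon-gamma type between -0.039 and 0.52.

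Of 1080 alternative values for 40 named genes, 1002 kept direction and side of the threshold, 13 passed where the unpaired value did not and 65 changed sign, the cause not being tested. In libraries 1 and 2 alone these were DDX58 (-0.10), IRF1 (-0.29), IRF7 (0.011) and WARS (-0.17, and -0.0016 with median-of-ratios scaling). In libraries 3 and 4 alone they were IFIT5 (0.057), OASL (0.10), B2M (0.012), PLSCR1 (-0.26) and SECTM1 (-0.45). Leaving out a library, with or without the block, gave ranges across 0 for DTX3L (-0.22 to 0.10), GBP1 (-0.24 to 0.57), IFIT5 (-0.082 to 0.082), IRF1 (-0.029 to 0.55), UBE2L6 (-0.074 to 0.31), B2M (-0.21 to 0.15), IFNGR1 (-0.26 to 0.19), IFNGR2 (-0.0023 to 0.24), MYD88 (-0.0043 to 0.47), NLRX1 (-0.58 to 0.20), PIAS1 (-0.0026 to 0.27), PLSCR1 (-0.10 to 0.38), PSME1 (-0.042 to 0.19), SECTM1 (-0.23 to 0.59) and WARS (-0.049 to 0.23).

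Low levels kept 10 members from the test (PSMB9 through its summed length), and depth limits the 8 interferon ligand genes at 0 reads. The block rests on numbers whose pairing is uncertain for 3 and 4, and the treatment text is not tied to libraries.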

Other observations

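The authors' deposited table calls 5 of the 87 other interferon pathway genes it lists at an adjusted p of 0.05, where 9.02% of all its genes passed, and they are named here for that reason, after their values were seen. IL10RB, a chain of the interferon lambda receptor, gave 6.75, 9.34, 6.9 and 5.57 RPKM in shCtrl and 11.8, 12.0, 10.8 and 8.91 RPKM in HIF1A-KD, higher in every pair with overlapping groups (log2 difference 0.61, limma adjusted p 0.418 unpaired and 0.0668 paired). HELZ2 and NT5C3A were lower in every pair, with log2 differences of -0.66 and -0.55 (adjusted p 0.841 and 0.774 unpaired, 0.127 and 0.122 paired). TAP2, the partner of TAP1, gave 0.925, 1.08, 0.815 and 0.828 RPKM in shCtrl and 0.807, 0.787, 0.657 and 0.522 RPKM in HIF1A-KD, without overlap (-0.36, adjusted p 0.875 unpaired and 0.47 paired). Like TAP1, it is listed on 8 contigs with a summed length. Over 1 copy its mean over all libraries would be 6.42 RPKM. GBP5, not tested here, gave 0.408, 0.468, 0.438 and 0.522 RPKM in shCtrl and 0.0541, 0.151, 0.12 and 0.311 RPKM in HIF1A-KD, and its moderated log2 fold change in the authors' deposited table was -0.89.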
